A study of Rattus norvegicus with 6 samples.

Results

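Circular RNAs (circRNAs) of the core-binding factor genes Runx2, Runx1 and Cbfb were described in rat dental follicle cells, the connective tissue cells that surround the developing tooth. The members were the circRNAs whose listed host name contained 1 of these 3 symbols, 8 of the 4143 circRNAs in the deposited table. Runx2 hosted 5 of them, Runx1 hosted 1 and Cbfb hosted 2. None of the 8 carried a second host name. The induction group was cultured for 28 days in medium with 5% fetal bovine serum and 1% of an osteogenic liquid. Per the labels this liquid contained ascorbic acid at 0.028 mmol/L, the glucocorticoid dexamethasone at 0.010 mmol/L and β-glycerophosphate, a phosphate source, at 1.000 mol/L. The control group was kept in the same medium without that liquid. The cells of both groups were primary cells at passage 3 to 4 from the tooth germs of Sprague-Dawley rats 5 to 7 days old, and no genetic change is named for either group. The labels name 3 samples per group, but each group was 1 column of values, so no value below has a replicate check and no difference was tested between rats.

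Runx2 and Runx1 are DNA-binding subunits of the core-binding factors, and Cbfb encodes the shared partner that does not itself contact DNA and that raises their affinity for it. Runx2 is required for osteoblasts to form and Runx1 is best known for the formation of blood cells, while mouse cartilage and bone cells also use Runx1 and Cbfb. A circRNA arises when the end of an exon is joined to the start of the same or of an upstream exon. It is counted by reads across this back-splice junction, so its count gives neither the amount of the linear mRNA nor that of the protein. Each circRNA has 1 such junction whatever its length, and the levels given here are junction counts or the deposited TPM, which had no correction for length.

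Runx2 circRNAs were more frequent in induction, mainly through 1 molecule, while those of Cbfb were at nearly equal levels and that of Runx1 did not differ beyond counting error. Summed over the host, Runx2 had 1378 counts in induction and 655 in control, a ratio of 1.93 on the totals behind the TPM values (exact 95% counting interval 1.76 to 2.12). The Cbfb sum was 225 counts in induction and 215 in control, a ratio of 0.960 (0.793 to 1.16). Runx1 had 33 and 23 counts in induction and control, a ratio of 1.32 (0.750 to 2.35). The interval of Runx2 lay wholly above that of Cbfb, and the wide interval of Runx1 held the values of both. These intervals are Clopper-Pearson limits, computed from how the reads divided over both columns, and cover counting error only. In a culture, more cells that make a circRNA and more of it per cell cannot be told apart.

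The term called is used for a circRNA whose ratio was 2 or more in either direction with an interval that left out equal levels. By this rule 18.5% of all listed circRNAs were called, 9.22% higher and 9.29% lower in induction. Of the 8 members 1 was called, a Runx2 circRNA that was higher, and this count is too small to set apart from the background. None of the 3 host sums was called, against 17.1% of the 1904 hosts with a sum.

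Runx2 is transcribed from a distal and a proximal promoter, which give proteins with different first residues, and RUNX proteins recognise the letters TGTGGT, which the opposite strand shows as ACCACA. Both RefSeq promoter entries of Runx2 are shown because the back-splice counts do not say which promoter gave the transcripts that were circularised. Each line is the 250 bases before an annotated start in the GRCr8 assembly, on the plus strand, at chr9:23664808-23665057 for the first and chr9:23742990-23743239 for the second, with either form of the letters in capitals.
Runx2 promoter at the lower coordinate: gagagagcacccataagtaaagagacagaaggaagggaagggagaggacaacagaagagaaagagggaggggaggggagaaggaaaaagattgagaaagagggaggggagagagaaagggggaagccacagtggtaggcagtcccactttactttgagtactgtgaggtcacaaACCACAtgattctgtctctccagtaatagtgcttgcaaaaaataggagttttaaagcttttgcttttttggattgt
Runx2 promoter at the higher coordinate: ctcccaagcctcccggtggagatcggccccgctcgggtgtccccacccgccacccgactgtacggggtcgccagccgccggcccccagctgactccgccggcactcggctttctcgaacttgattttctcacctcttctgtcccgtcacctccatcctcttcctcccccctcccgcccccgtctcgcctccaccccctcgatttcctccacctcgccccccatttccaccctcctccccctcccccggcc
The first held 1 match, beginning 76 bases before the start, and the second held none. In the 50 bases after the start, not shown, the first entry held 2 more matches and the second none. The first was 45.6% G and C and the second 70.0%. No match lay in the RefSeq promoter of Runx1 or of Cbfb. Over all 33469 promoter windows of 250 bases before a start, 14.5% held at least 1 match on either strand. A match is a string of letters and not a measured binding site.

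The 5 Runx2 circRNAs lay on chromosome 9 between 18643596 and 18737731 (Rnor_6.0), over 94.1 kb, and used 3 start and 3 end positions. They are named here by genomic span. The 6.95 kb circRNA ran from 18653895 to 18660843, and the 17.2 kb circRNA from 18643596 to the same end. The 64.3 kb circRNA ran from 18653895 to 18718205 and the 83.8 kb circRNA from 18653895 to 18737731. The 19.7 kb circRNA ran from 18718032 to 18737731. Every Runx2 circRNA therefore had a start or an end in common with another. The start of the 19.7 kb circRNA and the end of the 64.3 kb circRNA enclosed 174 bases. No other circRNA of the table overlapped this region. Exons were not assigned, and start and end mean the lower and higher coordinate, not the direction of transcription.

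**Figure D1:**
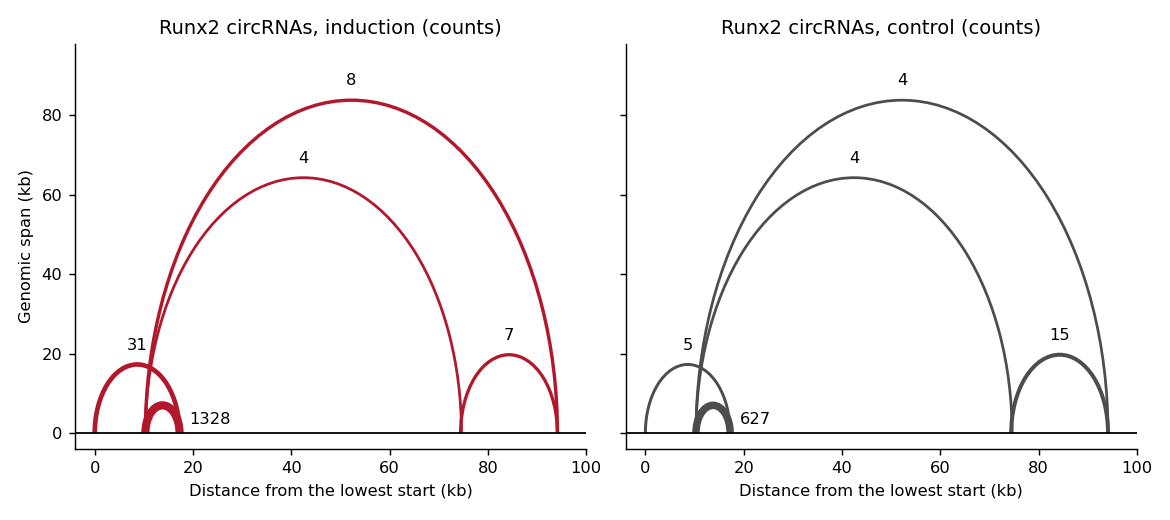
Each arc joins the ends of a Runx2 circRNA in induction (left) and control (right), with distance from the lowest start in kb on the horizontal axis and height equal to genomic span in kb. The printed counts, which also set line width on a log scale, show the short circRNA near the left end with 1328 counts in induction and 627 in control, and every other arc with at most 31.

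The 6.95 kb circRNA carried nearly all Runx2 back-splice reads in both columns. It had 1328 counts (5993 TPM) in induction and 627 counts (3084 TPM) in control. It ranked 16 by count in induction and 27 in control among the 4143 circRNAs. Its ratio of 1.94 (1.77 to 2.14) lay beyond counting error but short of 2-fold, and with DESeq2 size factors it was 2.02. If each column carried a coefficient of variation of 40%, an assumption and not a measurement, the interval would be 0.665 to 5.68, so whether the difference exceeds a spread between cultures was not tested. Among all listed circRNAs, 758 had a higher ratio.

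Of the 16 circRNAs with at least 1000 counts over both columns and no collagen host, the 6.95 kb Runx2 circRNA had the second highest ratio. The highest was that of the most abundant circRNA of Tnn, the gene of tenascin N, with a ratio of 33.2. The third was a circRNA at a 7SL RNA locus with 650 and 364 counts in induction and control and a ratio of 1.64 (1.44 to 1.87). The median ratio over these 16 was 1.04. Among the 40 circRNAs of this abundance with collagen hosts included, 10 had a higher ratio than that of Runx2.

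The 17.2 kb circRNA shares its end with the 6.95 kb circRNA but starts 10.3 kb lower. It had 31 counts (140 TPM) in induction and 5 counts (24.6 TPM) in control, and was the only member called. The ratio was 5.69 (2.19 to 18.7), and it ranked 806 by count in induction and 2701 in control. Of all circRNAs, 97.7% had a lower ratio. The scalings tried shifted all ratios alike and by too little to undo this call. With that assumed variation of 40%, which is not a measurement, the interval was 1.37 to 23.7 and the call was kept. Among reads at the shared end 18660843, the 17.2 kb circRNA took 2.28% in induction (1.56 to 3.22, 31 of 1359) and 0.791% in control (0.257 to 1.84, 5 of 632). These share intervals overlapped in part, while the ratio intervals of both circRNAs, 2.19 to 18.7 for the 17.2 kb one and 1.77 to 2.14 for the 6.95 kb one, did not.

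The remaining 3 Runx2 circRNAs had few reads. The 19.7 kb circRNA had 7 counts (31.6 TPM) in induction and 15 counts (73.8 TPM) in control. Its ratio was 0.428 with an interval of 0.148 to 1.12, which includes equal levels. The 83.8 kb circRNA had 8 and 4 counts in induction and control, a ratio of 1.83 (0.492 to 8.33). The 64.3 kb circRNA had 4 counts in each column, a ratio of 0.917 (0.171 to 4.93). None of these 3 differed beyond counting error.

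Summed by back-splice position, the junctions ending at 18660843 had 1359 counts in induction and 632 in control, a ratio of 1.97 (1.79 to 2.17). The 6.95 kb circRNA made up 97.7% of these counts in induction and 99.2% in control, so this sum largely repeats its ratio. Junctions ending at 18737731 had 15 counts in induction and 19 in control, a ratio of 0.724 (0.342 to 1.50). The intervals of these 2 ends did not overlap. Of the reads ending at 18737731, the 83.8 kb circRNA took 8 of 15 in induction (53.3%, 26.6 to 78.7) and 4 of 19 in control (21.1%, 6.05 to 45.6). The 19.7 kb circRNA took the rest, and the share intervals of the columns overlapped.

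**Figure D2:**
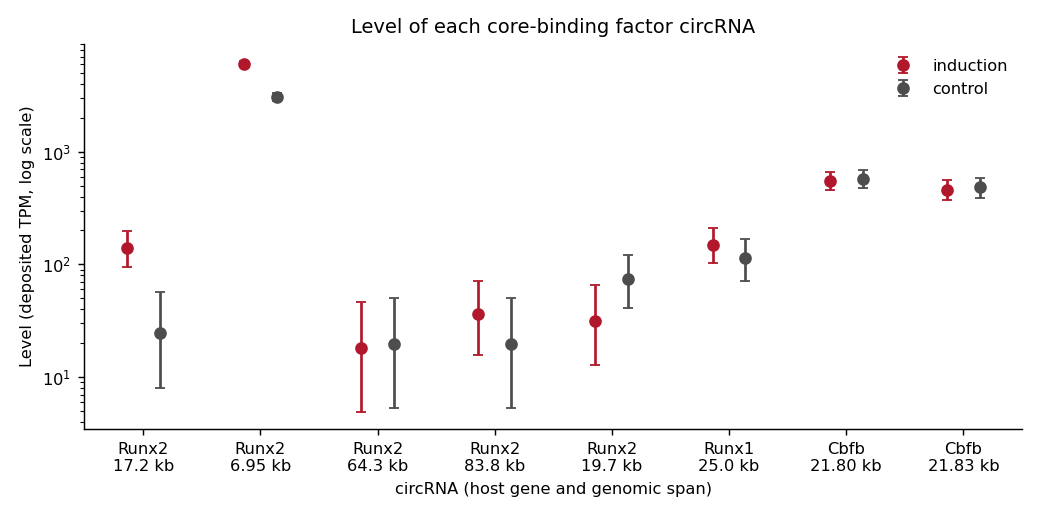
Deposited TPM of each member on a log axis, induction (red, left) beside control (grey, right), with exact 95% Poisson intervals of the count as bars. The 6.95 kb Runx2 circRNA stands highest in both columns at 5993 and 3084 TPM, and the bars of the columns are apart for it and for the 17.2 kb Runx2 circRNA.

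Within the host, shares do not depend on how the columns are scaled. The 6.95 kb circRNA made up 96.4% of Runx2 circRNA counts in induction (95.2 to 97.3) and 95.7% in control (93.9 to 97.1). The 17.2 kb circRNA made up 2.25% in induction (1.53 to 3.18) and 0.763% in control (0.248 to 1.77). The 19.7 kb circRNA made up 0.508% in induction (0.204 to 1.04) and 2.29% in control (1.29 to 3.75), and these intervals did not overlap. Its shares rest on 7 counts in induction and 15 in control, and also fall where the 6.95 kb circRNA is higher. The ratio interval of its own level, 0.148 to 1.12, includes equal levels. The second place within Runx2 thus went to the 17.2 kb circRNA in induction and to the 19.7 kb circRNA in control. The 83.8 kb circRNA held 0.581% in induction and 0.611% in control, and the 64.3 kb circRNA held 0.290% and 0.611% in induction and control. Without the 6.95 kb circRNA, the other 4 summed to 50 counts in induction and 28 in control, a ratio of 1.64 (1.01 to 2.70). Of these counts, 31 in induction and 5 in control were those of the 17.2 kb circRNA. None of the rest differed beyond counting error.

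Hosts with 5 or more circRNAs were 99 of 1904 (5.20%). Of the 86 with at least 50 counts in each column, Runx2 had the highest share in its most abundant circRNA in both columns. The median share over the 86 hosts was 48.7% in induction and 47.3% in control. Next in control came Serpinh1, with 84.8% in induction and 91.5% in control, and Gigyf2, with 89.9% in induction and 90.4% in control. The Runx2 share differed by 0.646 percentage points between induction and control, against a median absolute difference of 7.76 points over the 86 hosts. A share this close to 100% leaves little room to differ.

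**Figure D3:**
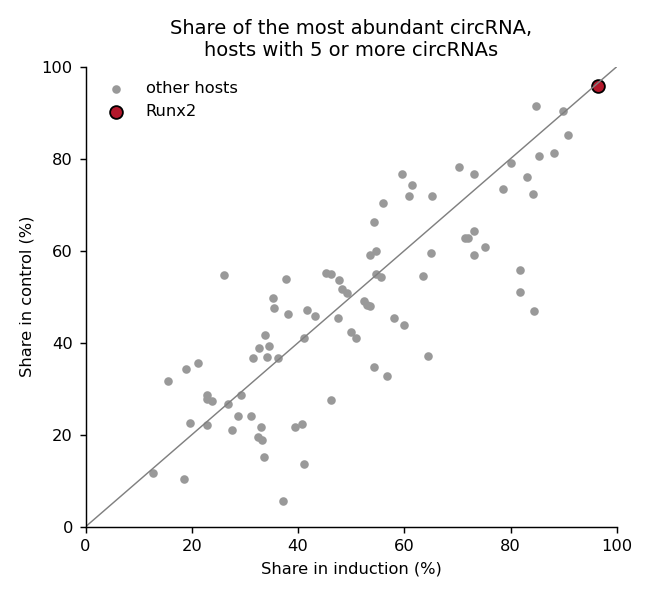
Share of the most abundant circRNA among all circRNA counts of its host, in induction (horizontal, %) and control (vertical, %), for the 86 hosts with 5 or more circRNAs and at least 50 counts in each column. The line marks equal shares, and Runx2 (red) lies at the upper right corner at 96.4% and 95.7%.

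Runx1 had 1 circRNA, on chromosome 11 from 32807347 to 32832388, with a span of 25.0 kb. It had 33 counts (149 TPM) in induction and 23 counts (113 TPM) in control. The ratio of 1.32 had an interval of 0.750 to 2.35, so a difference of 2-fold up or none at all both lie within counting error. A single listed circRNA was the usual case, found for 63.8% of the hosts. Runx1 also marks blood cells. Of 5 leukocyte markers, 4 (Ptprc, Cd68, Dock2 and Spi1) had no listed circRNA, and Dock8 had sums of 19 counts in induction and 29 in control. Of the 2 Dock8 circRNAs, 1 was called lower and the other had 15 counts in induction and 7 in control. The part of such cells in the Runx1 value was not tested. No circRNA of Runx3, the third gene of the family, was listed.

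Cbfb had 2 circRNAs on chromosome 19 that both start at 37135068 and end 31 bases apart, at 37156867 and 37156898. The shorter had 123 counts (555 TPM) in induction and 117 counts (576 TPM) in control, a ratio of 0.964 (0.743 to 1.25). The longer had 102 counts (460 TPM) in induction and 98 counts (482 TPM) in control, a ratio of 0.955 (0.716 to 1.27). Both intervals exclude a 2-fold difference either way as far as counting error goes. The shorter circRNA took 54.7% of Cbfb counts in induction (47.9 to 61.3) and 54.4% in control (47.5 to 61.2). The balance of the 2 ends thus differed by 0.248 percentage points between the columns, well inside counting error.

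Pairs of circRNAs that share an end and differ by at most 50 bases at the other numbered 41 in the table, of which 31 had at least 20 counts in each column. In these 31 pairs the share of the wider circRNA differed between induction and control by a median of 4.05 percentage points and at most 46.5 points. The Cbfb pair differed least of the 31, by 0.248 points. Its share intervals were far wider, 38.7 to 52.1% in induction and 38.8 to 52.5% in control, so the rank alone does not set Cbfb apart. Many of these pairs lay at small RNA genes with near-identical copies, and some share a circRNA or host, so they are not independent of each other. Whether reads of the 2 Cbfb ends were exchanged by alignment was not tested.

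**Figure D4:**
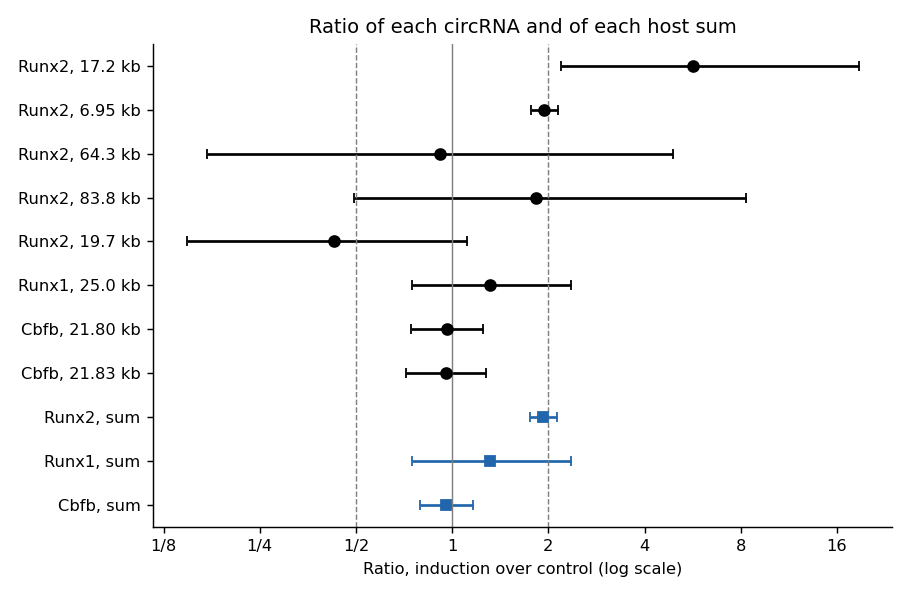
Ratio of induction over control on a log axis for each member (black circles) and each host sum (blue squares), with exact 95% counting intervals as bars, a solid line at equal levels and dashed lines at 2-fold. The 17.2 kb Runx2 circRNA lies wholly beyond 2-fold with its bar from 2.19 to 18.7, the 6.95 kb one straddles 2-fold, and both Cbfb circRNAs straddle equal levels.

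In induction the order of levels was the 6.95 kb Runx2 circRNA, the shorter and the longer Cbfb circRNA, Runx1, and then the 17.2, 83.8, 19.7 and 64.3 kb Runx2 circRNAs. In control the 19.7 kb circRNA stood next after Runx1, followed by the 17.2 kb circRNA, and the 64.3 and 83.8 kb circRNAs tied at 4 counts. The Poisson intervals of the shorter and longer Cbfb circRNA overlapped in both columns, at 102 to 147 against 83.2 to 124 counts in induction and 96.8 to 140 against 79.6 to 119 in control. In induction those of Runx1 (22.7 to 46.3 counts) and the 17.2 kb Runx2 circRNA (21.1 to 44.0) overlapped as well. In control the 17.2 kb circRNA had 1.62 to 11.7 counts, below the 14.6 to 34.5 of Runx1. All 8 members together took 0.993% of listed counts in induction and 0.648% in control. Without the 6.95 kb Runx2 circRNA the other 7 had 308 and 266 counts in induction and control, a ratio of 1.06 (0.899 to 1.26).

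**Figure D5:**
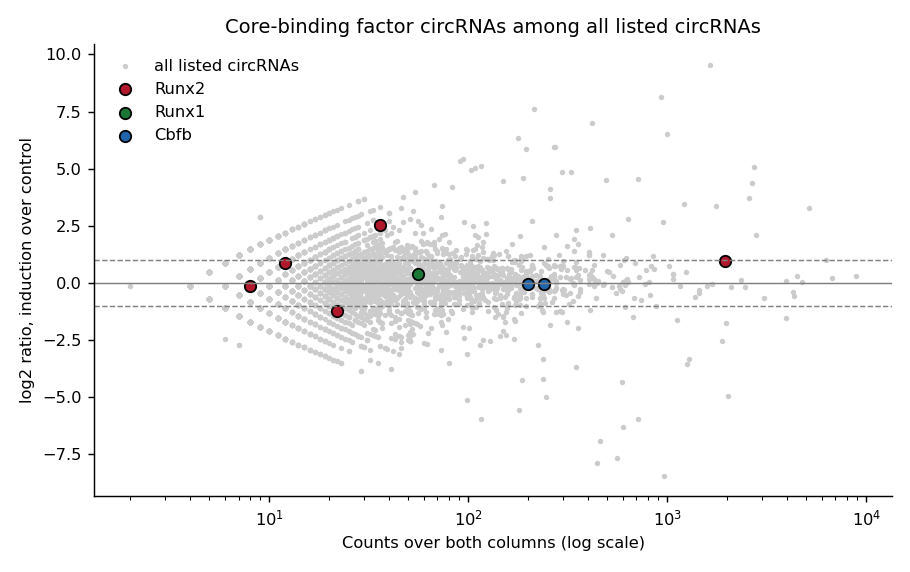
Log2 ratio of induction over control (vertical) against counts over both columns (horizontal, log scale) for all 4143 circRNAs in grey and the members in colour, with dashed lines at 2-fold. The 6.95 kb Runx2 circRNA lies at the abundant end just under the upper dashed line at 0.96, the Cbfb circRNAs lie near 0, and the other Runx2 circRNAs lie among the low counts where ratios scatter widely.

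For each host, the circRNAs of other genes nearest to its most abundant circRNA were found by Euclidean distance between log2 TPM in the 2 columns, over 4143 circRNAs. The nearest to the 6.95 kb Runx2 circRNA was at a distance of 0.752 log2 units and had a ratio of 0.950, at a 7SL RNA locus, followed by another at that locus (0.792) and a Uvrag circRNA (0.825). None of these shared the Runx2 ratio. Nearest to Runx1 were circRNAs of Slc25a16 and Fut8, each with 34 and 23 counts in induction and control, and of Spata13, with 32 and 23. Nearest to the shorter Cbfb circRNA were those of Col1a1 with 120 and 114 counts in induction and control, Col3a1 with 117 and 120, and Cdk14 with 123 and 110. With only 2 values per circRNA, likeness here says no more than that both levels were close.

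Genes that act with Runx2 were described from a list. Of 58 listed partners and regulators, 16 hosted 36 circRNAs, of which 2 were higher, none was lower and 34 were neither. Their median log2 ratio was 0.11, against −0.05 over all circRNAs, and 5.56% of them were called in either direction, against 18.5% of the whole table. The share called depends on counts, with 608 of 2011 called among circRNAs with at least 20 counts over both columns. With 36 circRNAs from 16 hosts, a difference from the background was not tested. The summed counts of the list went the other way from the median, with 813 in induction and 878 in control, a ratio of 0.849 (0.771 to 0.936). This sum leans on 1 circRNA of Hdac4, which gave 276 of the counts in induction and 403 in control. A ratio above 1 was found for 19 of the 36. The sum over all circRNAs had a ratio of 1.10. The higher ones were a circRNA of Zfp521, a zinc finger protein that restrains Runx2 activity, with 54 counts in induction and 21 in control (ratio 2.36, 1.40 to 4.11), and one of Rb1, the retinoblastoma protein that acts as a Runx2 coactivator, with 26 counts in induction and 2 in control (ratio 11.9, 2.99 to 104). The more abundant Zfp521 circRNA had 71 and 78 counts in induction and control.

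The corepressor Hdac4, which binds and inhibits Runx2, hosted the most abundant circRNA of this list, at 276 counts in induction and 403 in control, 1.59-fold lower (1.36 to 1.86). The abundant circRNA of the coactivator Crebbp, an acetyltransferase, had 67 counts in induction and 106 in control, 1.72-fold lower (1.26 to 2.38). Both lay beyond counting error and short of 2-fold. A circRNA of Gli3, an effector of hedgehog signalling, had 63 and 37 counts in induction and control, a ratio of 1.56 (1.02 to 2.41). Those of Smad4, the shared mediator of BMP and TGF-beta signals, had 33 and 37 counts and 35 and 25 counts in induction and control, and that of the acetyltransferase Kat6b had 17 and 15, all 3 within counting error. Sp7, Dlx5, Msx2 and Twist1 hosted no listed circRNA.

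Of 19 genes listed as Runx2 targets in bone, only Fgfr1, Fgfr2 and Serpinh1 hosted circRNAs, 10 in all, of which 2 were higher, 1 was lower and 7 were neither, against 9.22% higher and 9.29% lower over all circRNAs. With 10 circRNAs from 3 hosts, these counts are too small to set apart from the background. The median log2 ratio was −0.12. The circRNA of Fgfr1, a fibroblast growth factor receptor, had 65 counts in induction and 27 in control, a ratio of 2.21 (1.39 to 3.60). Of 4 circRNAs of the related receptor Fgfr2, that with 50 and 8 counts in induction and control was higher, and the most abundant had 72 and 40, a ratio of 1.65 (1.11 to 2.49). Those with 30 and 34 and with 28 and 18 counts in induction and control did not differ beyond counting error. The main circRNA of Serpinh1, the collagen chaperone, had 56 counts in induction and 129 in control, 2.51-fold lower (1.82 to 3.50), and the next 2 had 3 and 4 counts each in induction and control. Osteocalcin (Bglap), osteopontin (Spp1), Ibsp and Alpl, the usual readouts of osteoblast maturation, hosted no listed circRNA, so the course of differentiation cannot be read from these hosts.

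In the authors' deposited table, 2 of the 8 members had an FDR under 0.05, against 16.9% of all listed circRNAs. The FDR in the authors' deposited table was 1.56e-43 for the 6.95 kb Runx2 circRNA and 0.000372 for the 17.2 kb one, and among the other 6 members the lowest was 0.176, for the 19.7 kb Runx2 circRNA. These values compare 2 columns of reads and carry no spread between rats. The listed counts summed to 164746 in induction and 137740 in control, with a median of 9 per circRNA in each column. Of 9 mesenchymal markers, Col1a1, Col1a2, Col3a1, Fn1 and Prrx1 hosted circRNAs, while none of 6 epithelial markers did and Flt1 alone of 4 endothelial markers did, with 50 counts in induction and 48 in control.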

How the data were processed

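The members and gene lists were chosen with earlier results of these data known, and the comparisons across abundant circRNAs, hosts with 5 or more circRNAs, close back-splice ends and promoter letters were chosen after values were seen. Linear RNA and DNA had been depleted ahead of Illumina sequencing, per the labels' protocols. The submitters' processing notes list BWA and FastQC, without versions, and the build Rnor_6.0. Neither the circRNA caller nor the step from 3 libraries to 1 column was given in the sources used here, and the treatment protocol speaks of 3 rats, the design text of 4. Per the file headers, the deposited table gives a count per circRNA and group, each at least 1, so molecules present in a sole group were not analysed here. The deposited TPM equals the count over a total (221596 induction, 203283 control) scaled to counts per 1000000, without length correction. The authors' deposited log2 ratio is that of the TPM values, and the authors' deposited p-value and FDR came from their own test.

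Ratios and shares with exact 95% intervals were computed in Python 3.11.15 with scipy 1.17.1, and the ratio rule was tested on simulated data. The only pass condition was interval coverage with counting error alone, which says nothing of a spread between cultures. Alternative scalings used edgeR 4.0.16 (TMM) and DESeq2 1.42.0 size factors. Intervals cover counting error only, and reads without molecular identifiers are not independent molecules. Host sums used circRNAs with 1 host name, on 1 chromosome and within 5 Mb. The 7SL RNA locus carries an identifier that the RefSeq table pairs with Rn7sl1. Every member is named. From each partner and target list the 8 circRNAs of most counts and all called ones are named, and for each host the 3 circRNAs nearest in level. Promoters came from RefSeq (GRCr8), where 57 of the 58 partner symbols and all 19 target symbols were found in the gene table.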

Additional observations from a re-analysis of the deposited data

How the results depend on the processing

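No paired analysis was possible because the table gives 1 column per group, and no replicate could be left out. Scaling to listed totals moved every log2 ratio by −0.13, and the other scalings moved it by −0.08 to 0.05. The log2 ratio of the 6.95 kb Runx2 circRNA, 0.96 as reported, was 0.82 with listed totals and passed 2-fold with DESeq2 size factors at 1.01. The Runx2 host sum, 0.95 as reported, likewise passed it at 1.00 with DESeq2 size factors. It was 0.71 without its most abundant circRNA, where fewer counts remain, in induction mostly those of the 17.2 kb circRNA. The call of the 17.2 kb Runx2 circRNA was kept under each scaling, with log2 ratios of 2.37 to 2.56, since those shifts were too small to undo it. It was also kept under the assumed variation. No call was gained or lost by the other 6 members, by the sums of Runx1 and Cbfb or by the shares under the alternatives run for each, though the near-zero log2 ratio of the shorter Cbfb circRNA changed sign with DESeq2 size factors. The 767 calls over all circRNAs became 370 at 4-fold and 299 with an assumed coefficient of variation of 40% per column, both stricter by construction, and 608 of 2011 with at least 20 counts. Depth limits the Runx2 circRNAs other than the 6.95 kb one, which had between 4 and 31 counts per column.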
